A study of Bos taurus with 2 samples.

Results

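The genes described here are 10 amino acid transporters of the plasma membrane, *SLC7A5*, *SLC3A2*, *SLC7A11*, *SLC7A1*, *SLC7A8*, *SLC38A2*, *SLC38A1*, *SLC1A4*, *SLC1A5* and *SLC6A9*, in the *longissimus thoracis* (LT) muscle of fetal calves. They were found by matching the accession of each array probe to a gene symbol, and 8 of the 10 had a matched probe, with 20 probes in all. Of these, 7 genes had a probe well above background, against 19969 such genes on the whole array, of which 19554 had a value for the change between the groups. These totals, and every share or rank over all genes, also count transcripts without a matched symbol, each as a gene under its own identifier. *SLC7A11* and *SLC38A1* had no matched probe and are not analysed further. The list was chosen from the known functions of the carriers with the difference between the arrays in view, so that difference is given here as a description.

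The muscle came from Japanese Black fetuses at 8.5 months of gestation whose dams received 60% of their nutritional requirement during gestation in the LN group (low nutrition) and 120% in the HN group (high nutrition). All dams were inseminated with male-sorted semen of the same sire. RNA of 4 fetuses was pooled per group, those with the lowest bodyweight in LN and those with the highest in HN, so that diet and the selection by bodyweight cannot be told apart. Of each pool, 1 Agilent bovine array was run with a single dye, which gives 1 value per group. Hence nothing was replicated, no p-value can be given, and the spread between fetuses is unknown. The comparison made throughout is log2 LN/HN, positive where the signal was higher in the LN pool. Probes well above background were averaged to give the value of a gene, and the threshold for counting a gene as higher or lower was a log2 LN/HN of 0.32 in either direction, that is, a level 25% higher in one pool than in the other.

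Amino acids cross the cell membrane through families of carriers that differ in their substrates and in what drives them. The light chains of the SLC7 family, such as SLC7A5, exchange amino acids across the membrane while bound to the heavy chain SLC3A2, which brings them to the cell surface. Carriers of the SLC38, SLC1 and SLC6 families use the sodium gradient to take up or exchange small neutral amino acids, and so supply the substrates that the exchangers trade. Under a shortage of amino acids or stress of the endoplasmic reticulum, translation of the transcription factor ATF4 increases, and ATF4 induces a set of genes for amino acid synthesis, tRNA charging and transport. From textbook knowledge, *SLC7A5*, *SLC3A2*, *SLC7A11*, *SLC7A1*, *SLC38A2*, *SLC1A4*, *SLC1A5* and *SLC6A9* were taken as ATF4-induced carriers, and *SLC7A8* and *SLC38A1* as the others.

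The study designed a qRT-PCR assay for 1 of the 10 transporters, *SLC7A5*. Its primers are shown, 5′ to 3′ and in lower case throughout, because they define the part of the transcript that the study followed in single fetuses; the qRT-PCR values are not analysed here.
*SLC7A5* forward primer: ctccatcctctccatgatccac
*SLC7A5* reverse primer: atatctttggagaaggcgtagagc

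Of the 7 transporters with a value, 4 were past the threshold higher in the LN pool, namely *SLC7A5*, *SLC1A4*, *SLC3A2* and *SLC1A5*, and none was past the threshold lower. Over all genes with a value, 8.85% (1731 genes) were past the threshold higher and 9.11% (1781 genes) past the threshold lower. This balance depended on the scaling, with 1191 genes higher and 2693 lower after scaling both arrays to their 75th percentile, and 1462 higher and 2260 lower without normalization between the arrays. The count of members was 4 under both of these scalings. *SLC7A5* was the only one of the 7 past 2-fold, as were 0.711% of all genes in that direction, and it was under 2-fold in 3 of 12 alternative settings (log2 LN/HN of 0.65 with the normexp background correction, and 0.92 both without a filter on dim probes and with positive and significant probes). *SLC6A9*, *SLC38A2* and *SLC7A8* were within the threshold. Because the list was drawn up from this comparison, the counts describe the members and are not support for a change of the group.

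**Figure D1:**
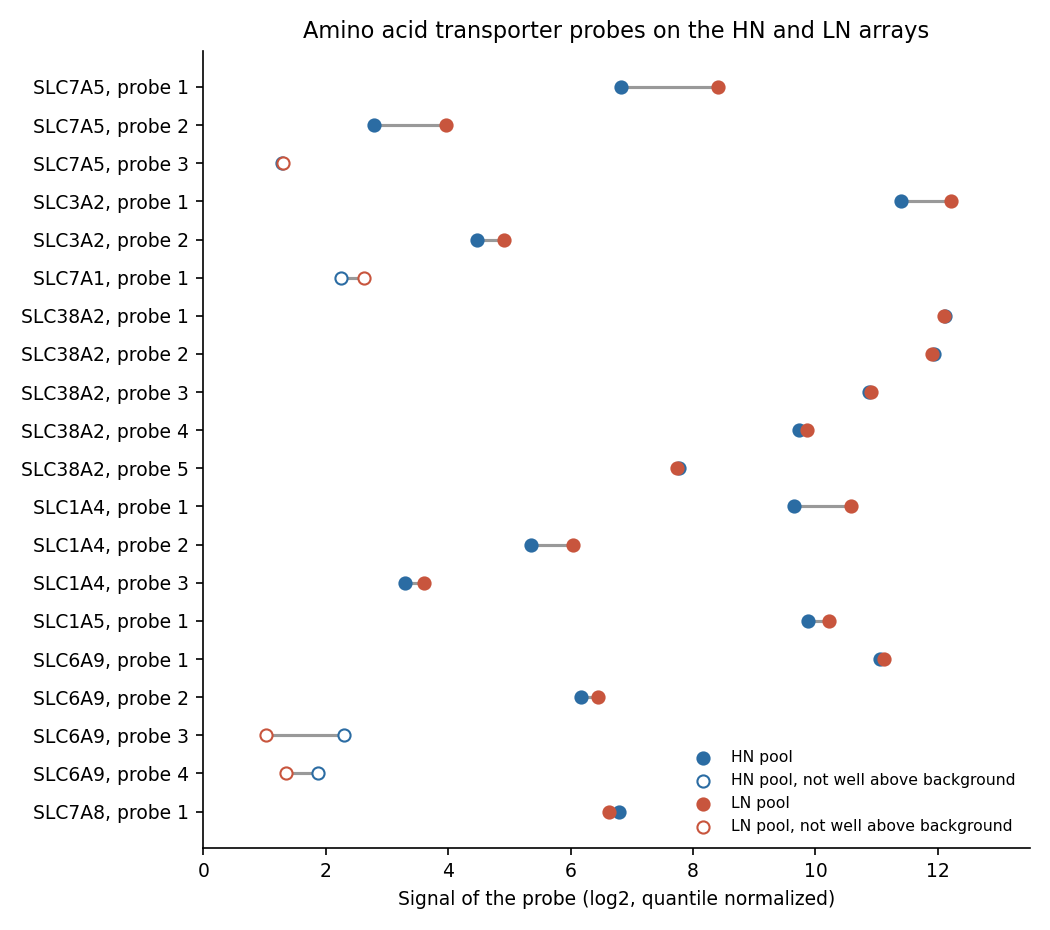
Log2 signal (x axis, quantile normalized) of the 20 probes of the 8 matched transporters in the HN pool (blue) and the LN pool (red), with a line joining both values of a probe. Open circles mark probes not well above background on either array; both measured probes of *SLC7A5* lie further right in the LN pool, while the points of *SLC38A2* nearly coincide.

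The exchangers of the SLC7 family differed among themselves. *SLC7A5* (transcript NM_174613), the light chain of the large neutral amino acid exchanger LAT1, was measured by 2 of its 3 probes. In its brighter probe the log2 signal was 6.83 in HN and 8.41 in LN, which corresponds to background-corrected intensities of 114 and 342. In the other probe it was 2.78 in HN and 3.96 in LN. Both probes were thus higher in the LN pool, with log2 LN/HN values of 1.58 and 1.17, and their mean of 1.38 was the 39th highest among all genes with a value. Its remaining probe was not well above background on either array.

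*SLC3A2* (NM_001024488), the heavy chain to which SLC7A5 binds, had a log2 signal of 11.39 in HN and 12.22 in LN in its brighter probe. In its dimmer probe the log2 signal was 4.47 in HN and 4.92 in LN. The log2 LN/HN values were 0.83 and 0.45, and that of the gene was 0.64, a 1.56-fold higher level in the LN pool. Both chains of the exchanger were therefore higher in the LN pool in each measured probe, the light chain by more than the heavy chain.

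*SLC7A8* (NM_001192889), the light chain of LAT2, exchanges neutral amino acids with the same heavy chain and was not listed as ATF4-induced. Its single probe had a log2 signal of 6.78 in HN and 6.63 in LN, a log2 LN/HN of -0.15. It was the only measured member lower in the LN pool, by less than the threshold. *SLC7A1* (NM_001135792), which takes up the cationic amino acids arginine and lysine, had 1 probe. Its log2 signal was 2.25 in HN and 2.62 in LN, not well above background on either array, so that no fold is given.

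Of the sodium-dependent neutral amino acid exchangers, *SLC1A4* (NM_001081577), which carries alanine, serine and cysteine, was higher in the LN pool in all of its 3 probes. The log2 signals were 9.64 in HN and 10.59 in LN in the brightest probe. They were 5.35 and 6.04 in the next, and 3.29 and 3.60 in the dimmest. The log2 LN/HN values of these probes were 0.94, 0.68 and 0.31, so that the brightest probe gave the largest and the dimmest the smallest difference. Their mean was 0.64, or 1.56-fold, as in *SLC3A2*. *SLC1A5* (NM_174601), which exchanges glutamine and other neutral amino acids, had a log2 signal of 9.88 in HN and 10.22 in LN in its single probe. Its log2 LN/HN of 0.34 lies just past the threshold.

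*SLC38A2* (NM_001082424), the system A carrier SNAT2 that concentrates small neutral amino acids in the cell and a known ATF4 target, was measured by 5 probes. The log2 signal of the brightest was 12.11 in HN and 12.10 in LN. In the next it was 11.93 and 11.90, and in the dimmest 7.78 and 7.73. Those 3 probes were lower in LN by far less than the threshold, and the remaining probes were slightly higher, at 10.88 and 10.91 and at 9.74 and 9.87. The log2 LN/HN of the 5 probes ranged from -0.04 to 0.13, with a mean of 0.02 for the gene. It was the transporter with the most probes and the smallest difference. *SLC6A9* (NM_001242342), the glycine transporter GlyT1, was measured by 2 of its 4 probes, with log2 signals of 11.05 in HN and 11.12 in LN in the brighter and of 6.17 and 6.45 in the other. Their log2 LN/HN values were 0.07 and 0.28, and that of the gene was 0.17. Its other probes were not well above background on either array.

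**Figure D2:**
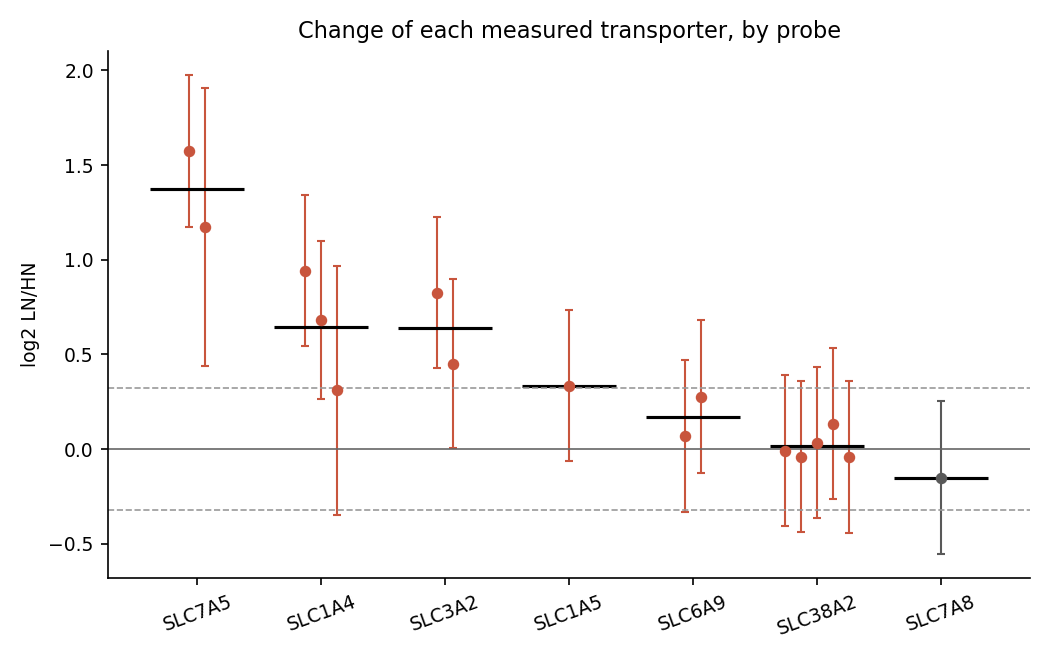
Log2 LN/HN (y axis) of the 7 measured transporters, with 1 point per probe well above background and a black line at the mean of the gene. Bars are 1.96 times the error of the ratio, worked out from the extraction software's error of each signal. Red marks ATF4-induced carriers and gray *SLC7A8*, and dashed lines mark the threshold; the bars of both *SLC7A5* and both *SLC3A2* probes lie above 0, whereas those of *SLC1A5*, *SLC6A9*, *SLC38A2* and *SLC7A8* include 0.

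An estimate of the error of the array measurement can be set against these values, although the error between animals cannot. The extraction software gave an error for each signal, from which an error of the log2 ratio was worked out. It lay between 0.20 and 0.37 for the 16 member probes well above background on both arrays. In bright probes this error stayed near 0.20 whatever the signal, so 1.96 times it was nearly a fixed limit there. The log2 LN/HN exceeded 1.96 times that error in 6 of the 16, namely both measured probes of *SLC7A5*, both of *SLC3A2* and the brighter pair of *SLC1A4*. That of *SLC1A5* did not. The share of all probes on the arrays past this limit was not computed, so the count only describes these 16. For comparison, a single spot of the 42 repeatedly printed probes had an SD of 0.085 in the same ratio. Of the 5 transporters with at least 2 measured probes, all probes of 4 had the same direction, the exception being *SLC38A2*. The share of such genes over the whole array was not computed. Over the array, 7139 genes had several probes well above background on both arrays, with a median SD between probes of 0.099. In the 5 transporters this SD ran from 0.07 in *SLC38A2* to 0.32 in *SLC1A4*. No spot of a member carried an outlier flag, and no spot on either array was saturated.

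The ATF4-induced carriers and the others could be set side by side only in part. The 6 measured ATF4-induced carriers had log2 LN/HN values from 0.02 in *SLC38A2* to 1.38 in *SLC7A5*, with a median of 0.49. All 6 were above 0, as were 9636 of the 19554 genes, but *SLC38A2* and *SLC6A9* were within the threshold and each was below 0 in 2 of 12 alternative settings. The lower and upper quartiles of all genes were -0.14 and 0.13, and their median was -0.0033. Without *SLC7A5*, which the study named from these arrays, the median of the remaining 5 was 0.34. The other side of the contrast rests on *SLC7A8* alone (-0.15), since *SLC38A1* had no matched probe. With 1 gene on that side, the difference between both kinds of carrier in the list was not tested.

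**Figure D3:**
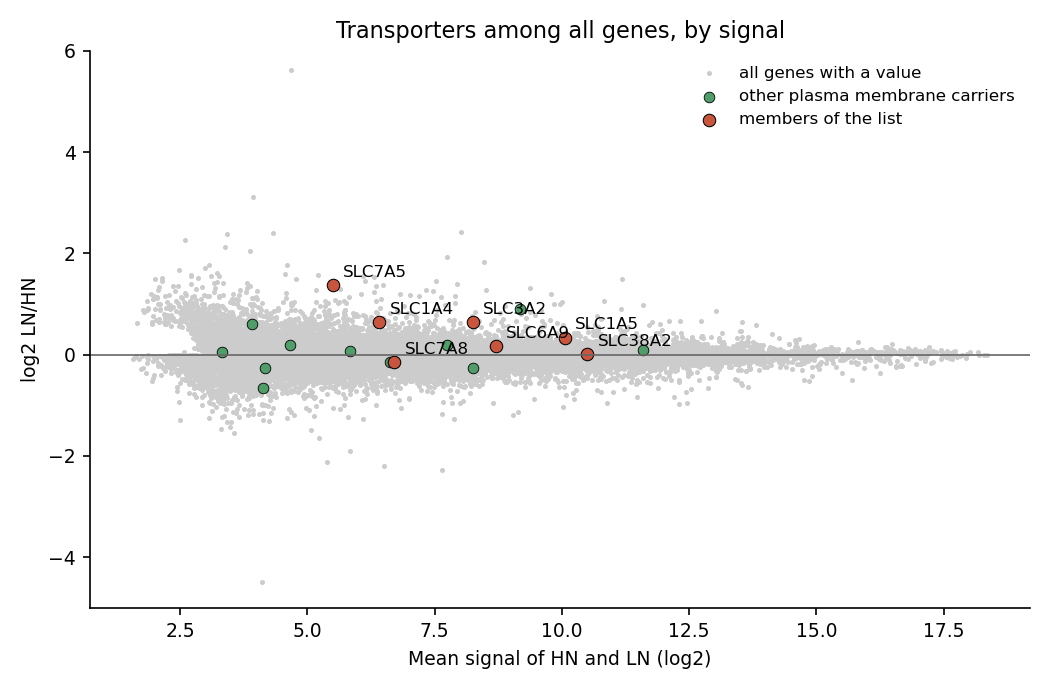
Log2 LN/HN (y axis) against the mean log2 signal of both arrays (x axis) for all 19554 genes with a value (gray), 11 other plasma membrane carriers (green) and the 7 measured members (red). *SLC7A5* stands above most genes of like signal, and *SLC38A2* lies on the line of no difference.

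A wider set of 28 other plasma membrane amino acid carriers, written from general knowledge, gives a further comparison. Of these, 21 had a matched probe and 11 had a value, with 7 higher and 4 lower in the LN pool. Their median log2 LN/HN was 0.07, but -0.059 after scaling to the 75th percentile and -0.023 without normalization between the arrays. Of the 11, 2 were past the threshold higher and 1 lower, against 8.85% and 9.11% of all genes, counts too small to compare with these shares. Over all genes, 9636 of 19554 were above 0. *SLC7A10*, an exchanger of small neutral amino acids that also binds SLC3A2, had a log2 signal of 8.74 in HN and 9.63 in LN in its 1 probe, a log2 LN/HN of 0.90. *SLC38A5*, a glutamine carrier, had a log2 signal of 3.62 in HN and 4.22 in LN, a log2 LN/HN of 0.60 from 1 of its 3 probes. *SLC38A4*, another carrier of the SLC38 family, had a log2 signal of 4.46 in HN and 3.81 in LN, with probes at -0.70 and -0.60. It was the largest difference toward the HN pool among these 11 carriers.

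The values within each family were as follows, with no test between families. Of the light chains known to bind SLC3A2, *SLC7A5* (1.38) and *SLC7A10* (0.90) were higher in the LN pool, whereas *SLC7A8* and *SLC7A7* both had a log2 LN/HN of -0.15. *SLC7A7*, a light chain that exports cationic amino acids, had probes at -0.34 and 0.04. In the SLC38 family, *SLC38A5* was higher, *SLC38A4* was lower, and *SLC38A2* had a mean of 0.02. The mean of *SLC38A3* was 0.07, but its 2 probes disagreed, at -0.19 and 0.33. In the SLC1 family *SLC1A4* and *SLC1A5* were past the threshold, and *SLC1A3*, a glutamate carrier, at 0.19 and *SLC1A7* at 0.06 were within it. *SLC43A1* (0.09) and *SLC43A2* (-0.25), which carry large neutral amino acids without a heavy chain, were within the threshold. The means of *SLC3A1* (0.19) and *SLC16A10* (-0.27) were also within it, with probes at 0.04 and 0.34 in the former and disagreeing probes at -0.73 and 0.19 in the latter.

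Carriers of the lysosome, which release amino acids from degraded protein into the cytosol, were measured for 6 of 8 listed genes. Of these, 2 were above and 4 below 0, with a median log2 LN/HN of -0.07, and 1 was past the threshold lower, as were 9.11% of all genes. *CTNS*, the lysosomal cystine exporter, was that gene, with a log2 signal of 6.46 in HN and 5.95 in LN and a log2 LN/HN of -0.51. Its 2 measured probes gave -0.55 and -0.47.

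**Figure D4:**
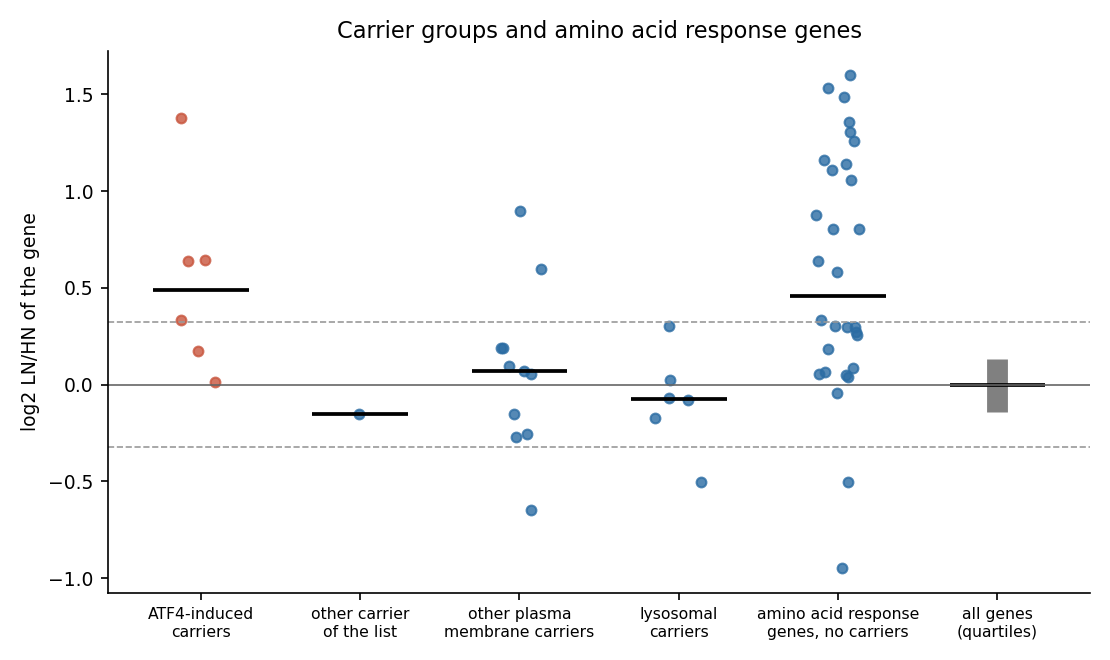
Log2 LN/HN (y axis) of each measured gene in 5 groups, with a black line at the median of the group, beside the quartiles of all genes with a value (gray bar). Dashed lines mark the threshold; the 6 ATF4-induced carriers (median 0.49) and the 30 amino acid response genes that are no carriers (median 0.46) lie mostly above 0, while the other carriers (0.07) and the lysosomal carriers (-0.07) lie on both sides.

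The other genes of the ATF4 pathway, a list of 34 genes that are no carriers, give the setting of the transporters. Of the 30 with a value, 27 were higher in the LN pool, as were 9636 of all 19554 genes. Of the 30, 16 were past the threshold higher and 10 past 2-fold higher, against 8.85% and 0.711% of all genes with a value. Those past the threshold lower were *ATF3*, a stress-induced transcription factor (-0.95, 1 probe), and *DDIT4*, an inhibitor of mTORC1 signaling (-0.51, 2 probes). Its median was 0.46 on the log2 LN/HN scale, and 0.30 without *TRIB3*, *MTHFD2* and *ALDH1L2*, which the study named from these arrays. The 3 probes of *TRIB3* disagreed, from -0.66 to 2.01. The highest values were those of *MTHFD2*, a mitochondrial folate enzyme (1.60), the serine synthesis enzymes *PSPH* (1.53) and *PHGDH* (1.49), *ALDH1L2* (1.36), the transsulfuration enzyme *CBS* (1.31) and *PCK2* (1.26). The median of the ATF4-induced carriers (0.49) was close to the 0.46 of this list, and that of the 11 other plasma membrane carriers (0.07) was lower. Neither comparison could be tested with 1 array per group. The members and these lists were chosen with earlier results of these data known. The medians and counts are therefore a description and no support for a shared response.

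*ATF4* itself had a log2 signal of 12.13 in HN and 12.39 in LN, a log2 LN/HN of 0.26 from 3 probes between 0.14 and 0.47, within the threshold. The values of the ATF4-induced carriers therefore ranged from below to above that of *ATF4* mRNA, *SLC38A2* (0.02) and *SLC6A9* (0.17) below it, and *SLC1A5* (0.34), *SLC3A2* (0.64), *SLC1A4* (0.64) and *SLC7A5* (1.38) above it. The gene for asparagine synthetase, *ASNS*, often used to mark this response, had a log2 LN/HN of 1.14, between *SLC1A4* and *SLC7A5*.

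Markers of the tissue and of other cell types were examined because amino acid transporters are expressed in many cells. All 9 matched skeletal muscle markers were detected, with log2 signals in the HN pool from 11.25 in *MYOG* to 18.35 in *TNNC2*, and a median log2 LN/HN of -0.14. *MB* (-0.37) and *MYH8* (0.35), the perinatal myosin heavy chain, were past the threshold. Endothelial markers (5 of 5 measured, median -0.19), macrophage markers (5 of 5, -0.24), lymphocyte markers (6 of 6, -0.07) and erythroid markers (5 of 7, -0.16) had medians below 0. *SLC4A1*, the anion exchanger of red cells, was not well above background. Past the threshold among these were *CD68* (-0.35) and *CD2* (-0.44). Fibroblast markers (3 of 3 measured) and adipocyte markers (3 of 5) both had a median of 0.22, with *COL1A1* (0.34) and *FABP4* (0.39) past the threshold, and 1 adipocyte marker, *PLIN1* (-0.14), was below 0. *LEP* was not well above background.

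Neutrophil markers moved most. Of the 4 matched, *S100A8* (2.62-fold) and *S100A9* (2.37-fold) were past 2-fold higher in the LN pool, and *MPO*, a granule enzyme, was at least 8.62-fold higher, being not well above background in HN. *ELANE*, another granule enzyme, had a log2 LN/HN of -0.13. The summed signal of the 4 genes was 244 in HN and 596 in LN. The part of neutrophils or of any other cell type in the values of the transporters was not tested, and in pooled tissue RNA a change in the share of a cell type and a change in the RNA per cell cannot be told apart.

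**Figure D5:**
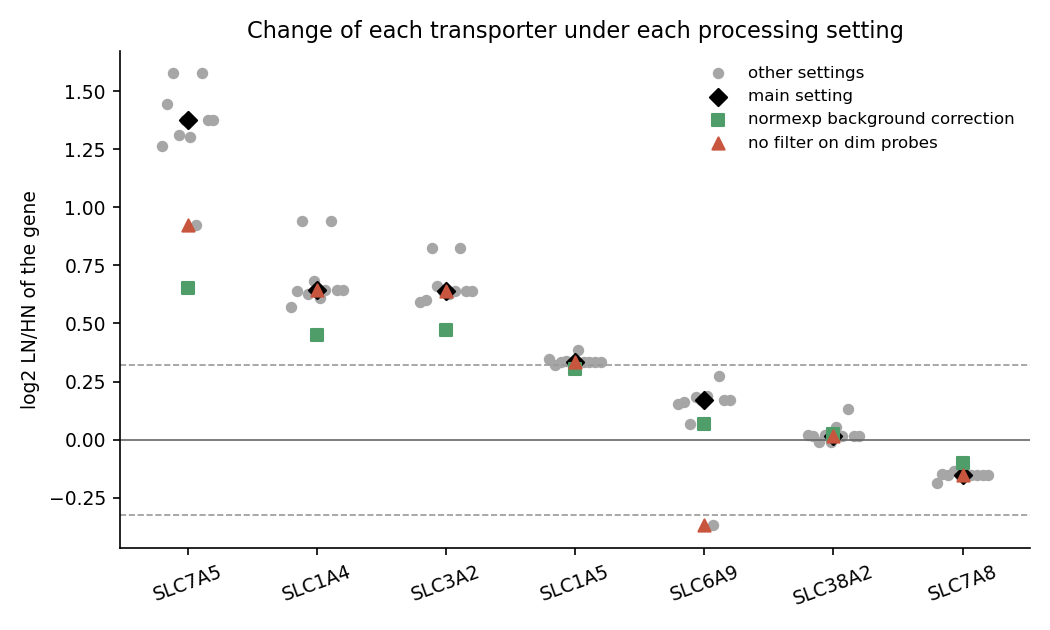
Log2 LN/HN (y axis) of the 7 measured transporters under the main setting (black diamonds), the normexp background correction (green squares), no filter on dim probes (red triangles) and the other processing settings (gray). Dashed lines mark the threshold; *SLC7A5*, *SLC1A4* and *SLC3A2* are above the upper line in every setting run, and *SLC7A8* is below 0 in every one.

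The size of the difference in *SLC7A5* was lowest under the normexp correction and next lowest without a filter on dim probes or with positive and significant probes. Its log2 LN/HN was 1.44 in the normalized values of the authors, with probes at 1.49 and 1.40, 0.92 when its dimmest probe was also counted and 0.65 after the normexp background correction, under which 1.62% of all genes were past the threshold higher. Over all 12 settings *SLC1A4* stayed between 0.45 and 0.94 and *SLC3A2* between 0.47 and 0.83. *SLC1A5* ranged from 0.30 to 0.38 and was past the threshold in 10 of 12 settings. *SLC6A9* had a log2 LN/HN of -0.37 when its probes near background were counted, past the threshold toward the HN pool, against 0.17 without them. *SLC38A2* (from -0.01 to 0.13) and *SLC7A8* (from -0.19 to -0.10) were within the threshold in all 12.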

How the data were processed

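Pooled total RNA of 1 LN and 1 HN group was measured on 2 one-color arrays. Spot signals were extracted by the authors with Agilent Feature Extraction 11.0.1.1; the deposited intensity values are background-corrected, carry error estimates and flags, and are not normalized between arrays. The authors also deposited log2 values of 30027 probes, quantile normalized in GeneSpring GX (log2 scale judged from the values).

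Log2 intensities of the 43803 non-control spots were quantile normalized with limma 3.58.1 in R 4.3.3, after the method stated by the study. Spots with an outlier flag (13) were removed and spots of a probe averaged (43652 probes, Python 3.11.15 with pandas 2.3.3). Detected probes were those well above background on at least 1 array; of the spots, 74.5% were so in HN and 70.9% in LN. Where 1 side was dim, it was set to the lowest signal well above background on that array or its own value if higher, and where the bright side did not exceed this, no fold was given. Gene values are means of the detected probes with a fold. Precision is limited by the number of arrays. Accessions were turned into symbols with a RefSeq table for ARS-UCD2.0 (26742 probes matched). The other probes were kept under their own identifier and counted as separate genes, so 1 gene may be counted more than once over the whole array.

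The genes named were all 10 members, ATF4, and genes past the threshold in the lists of other plasma membrane carriers, lysosomal carriers and amino acid response genes (up to the 6 largest each way), and cell type markers past the threshold or not well above background. *ASNS*, *TRIB3*, *MYOG*, *TNNC2*, *ELANE*, *PLIN1* and the carriers within the threshold were named after their values were seen. The members and lists were chosen with earlier results of these data known. The steps were tested on simulated data. Alternatives were 3 other scalings, the normexp correction (offset 50, on median spot signals because mean signals are not in the files), the normalized values of the authors, 3 filters on dim probes, 3 summaries of probes and flagged spots kept.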

Additional observations from a re-analysis of the deposited data

How the results depend on the processing

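Under 12 alternative settings, the count of members past the threshold of 25% higher in the LN pool lay between 3 and 5, against 4, and none of those 4 changed direction. The share of all genes past it in that direction also moved, to 1.62% after the normexp correction (319 genes higher and 386 lower) and 7.73% in the normalized values of the authors, where 3 members were counted, and to 12.2% without a filter on dim probes and 13.2% with positive and significant probes, where 5 were counted. *SLC6A9*, within the threshold at 0.17, was past it in the other direction (-0.37) without a filter on dim probes and with positive and significant probes. The median log2 LN/HN of *SLC7A8*, the only measured gene of the 10 outside the ATF4-induced set, stayed between -0.19 and -0.10. For the ATF4-induced carriers the median was 0.58 with the brightest probe and 0.58 with the probe of the largest change of each gene, 0.37 both without a filter on dim probes and with positive and significant probes, which add *SLC7A1* and the dim probes, and 0.38 after the normexp correction. Without *SLC7A5*, a setting chosen after seeing the data, it was 0.34. For the amino acid response genes it was 0.55 with the brightest probe, 0.58 with the probe of the largest change, without a filter and with positive and significant probes, 0.24 after the normexp correction and 0.30 without *TRIB3*, *MTHFD2* and *ALDH1L2*, also chosen after seeing the data. For the other plasma membrane carriers it was below 0 when the 75th percentile was subtracted (-0.059) or with no normalization (-0.023). The cause of these shifts was not tested. Naming probes by a name column was not run, since the files hold none, and leaving out a replicate was not possible with 1 array per group. Probes near background limit *SLC7A1*, *SLC6A9* and the dimmer probe of *SLC7A5*.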
